A study of Mus musculus with 3 samples.

Results

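The miRNAs described here are the 8 mature miRNAs from hairpins at 4 imprinted loci of the mouse, H19 (miR-675), Igf2 (miR-483), Mest (miR-335) and the Gnas region (miR-296 and miR-298), of 1138 mature miRNAs listed in each library. They were chosen by name and host locus, and also with their read counts at days 0, 1 and 3 known, so their changes between the libraries are given as a description with no test. Small RNAs of the tibialis anterior (TA), a shin muscle, were sequenced in wild type (WT) C57BL/6 mice aged 10 weeks by the labels. The muscles were taken at day 0, which the study's text calls uninjured, or at day 1 or day 3 after injection of cardiotoxin (CTX), a peptide of cobra venom that kills myofibers while leaving muscle stem cells able to rebuild them. The labels give the injection as 10 mM CTX in 30 mL, whereas the study's methods give the same figures in μM and μl. All mice carried unmodified alleles, and 4 samples of each time point were pooled into 1 library.

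With 1 library per time point, no spread between mice could be estimated, and every interval below covers counting error only. The total was 8507580 reads in the day 0 library, 6421056 in the day 1 library and 9795076 in the day 3 library. Levels are given as counts per 1000000 reads of the library (CPM) with exact 95% Clopper-Pearson intervals, and changes as log2 ratios of CPM with exact 95% conditional binomial intervals. A floor of 3 reads, which is 0.353, 0.467 and 0.306 CPM in the 3 libraries, was taken as the least level that could be told from 0. The day 1 and day 3 libraries were both compared with the same day 0 library, so those comparisons share it.

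An imprinted gene is transcribed mainly from the copy inherited from a single parent, and many imprinted genes act on growth before birth and fall silent in adult tissue. H19 is a maternally expressed long noncoding RNA and its neighbour Igf2, expressed from the paternal copy, encodes insulin-like growth factor 2, a growth factor for muscle cells; both are abundant in embryonic muscle and known to return in regenerating muscle. Mest (also called Peg1) encodes a paternally expressed membrane protein of the hydrolase family, and Gnas is a complex locus with maternal, paternal and antisense transcripts such as Nespas. An miRNA hairpin is cut into a duplex whose 5′ side is named 5p and whose 3′ side is named 3p; usually the strand taken up by Argonaute accumulates and the other strand decays. The seed, bases 2 to 8 of the mature miRNA, guides the pairing with target mRNAs.

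The mature sequences, from the RefSeq table for GRCm38.p6, show whether any members could pair with the same targets or be mistaken for each other during alignment. They are written 5′ to 3′ with the seed in capitals. The first 8 are the members and the last 2 are the other arms of the Gnas-region hairpins.
mmu-miR-675-3p: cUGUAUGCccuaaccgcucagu
mmu-miR-675-5p: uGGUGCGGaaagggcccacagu
mmu-miR-483-3p: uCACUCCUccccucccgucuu
mmu-miR-483-5p: aAGACGGGagaagagaagggag
mmu-miR-335-3p: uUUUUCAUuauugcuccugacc
mmu-miR-335-5p: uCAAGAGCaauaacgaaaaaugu
mmu-miR-296-3p: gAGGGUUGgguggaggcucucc
mmu-miR-298-5p: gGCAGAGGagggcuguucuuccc
mmu-miR-296-5p: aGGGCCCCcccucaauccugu
mmu-miR-298-3p: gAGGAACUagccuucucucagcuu

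The 10 seeds were all distinct, and no other of the 1679 mature names in the table carried any of them. With bases 2 to 7 alone, miR-483-3p shared its bases with miR-3110-3p, miR-335-3p with miR-6986-3p, miR-335-5p with miR-7646-5p and miR-296-5p with miR-5621-3p. Each of the 10 sequences differed from its closest other mature miRNA by at least 6 bases. The table matched 953 of the 1138 listed names, so the rest were not compared. The GC content of the members ran from 30.4% to 68.2%, around a table median of 52.2%.

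By the GENCODE M21 annotation of GRCm38, Mir675 (chr7:142577064-142577147, minus strand) lay inside an exon in 3 H19 transcripts and inside an intron in 1. Mir483 (chr7:142654924-142654996, minus strand) lay in an intron of 7 Igf2 transcripts, and of 1 transcript of the overlapping gene model Gm49394, 77776 bases from Mir675. Mir335 (chr6:30741299-30741396, plus strand) lay in an intron of 7 Mest transcripts. Those hairpins were on the strand of their host. Mir296 (chr2:174267047-174267125, minus strand) and Mir298 (chr2:174267504-174267585, minus strand) were 378 bases apart and inside no annotated gene, with Nespas the nearest gene at 14112 and 13652 bases and Gnas at 17195 and 16735 bases.

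As a group, the 8 members were low on day 0 and day 1 and higher on day 3. Together they made up 167.5 CPM (158.9 to 176.4) before injury, 118.8 CPM (110.5 to 127.6) on day 1 and 1219 CPM (1198 to 1241) on day 3, which is 7.28 times the day 0 level and 10.3 times the day 1 level. With the 2 other arms included, all 10 arms made up 200.9, 181.9 and 1292 CPM on days 0, 1 and 3. The day 3 level of the 10 arms was 6.43 times that of day 0 and 7.10 times that of day 1. Their log2 difference for day 1 against day 0 was -0.14 (-0.25 to -0.03), beside -0.50 (-0.62 to -0.37) for the 8 members. All 8 members had higher CPM on day 3 than in either earlier library, whereas on day 1 they were split. The plot of levels by locus shows both arms of each hairpin.

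**Figure D1:**
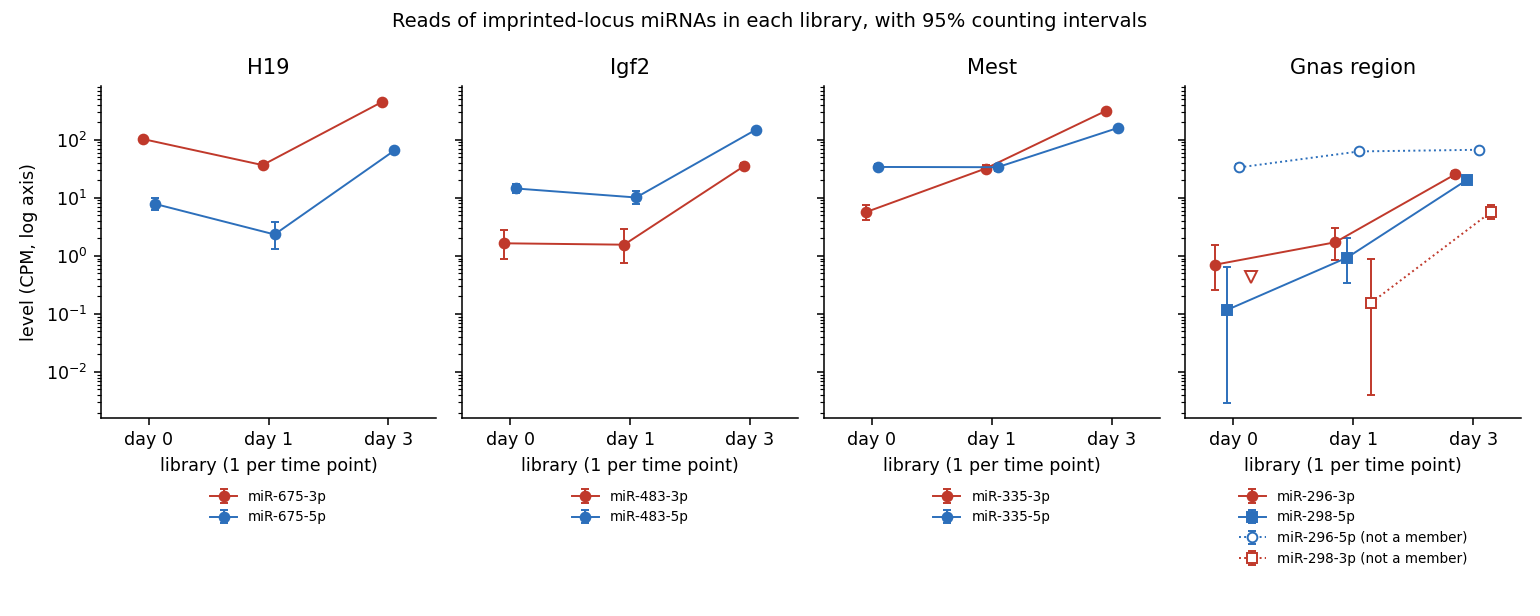
Level of each member in the day 0, day 1 and day 3 libraries, in CPM on a log axis, in 1 panel per host locus, with 3p arms in red and 5p arms in blue. Bars are exact 95% counting intervals, open symbols with dotted lines are the arms that are not members, squares are miR-298, and the open triangle is the upper limit for 0 reads of miR-298-3p on day 0. Every member is highest on day 3, H19's arms dip on day 1, and the arms of miR-335 change order.

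At H19, miR-675-3p had the highest count of the members in each library. Of it, 877 reads were counted before injury, 235 on day 1 and 4429 on day 3. These are levels of 103.1 CPM (96.4 to 110.1), 36.6 CPM (32.1 to 41.6) and 452.2 CPM (438.9 to 465.7), and ranks of 118, 221 and 90 among the listed miRNAs. The day 1 library was thus the lowest and the day 3 library the highest, and the 3 intervals did not overlap. The log2 difference from day 0 was -1.49 (-1.71 to -1.28) on day 1 and 2.13 (2.03 to 2.24) on day 3, and from day 1 to day 3 it was 3.63 (3.44 to 3.82), a ratio of 12.4. The other arm, miR-675-5p, followed the same order at a lower level, with 67, 15 and 641 reads, or 7.88 CPM (6.10 to 10.0), 2.34 CPM (1.31 to 3.85) and 65.4 CPM (60.5 to 70.7). Its log2 differences were -1.75 (-2.67 to -0.93) for day 1 against day 0, 3.05 (2.69 to 3.44) for day 3 against day 0 and 4.81 (4.08 to 5.65) for day 3 against day 1. No other member was at least 2-fold lower on day 1 than on day 0. miR-675 is known as a product of H19 that accompanies muscle differentiation.

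At Igf2, miR-483-5p was the more abundant arm. Before injury it had 123 reads, and 65 and 1463 reads on the later days, at 14.5 CPM (12.0 to 17.3), 10.1 CPM (7.81 to 12.9) and 149.4 CPM (141.8 to 157.2). The day 1 level lay slightly under that of day 0, with a log2 difference of -0.51 (-0.97 to -0.07), and overlapping level intervals. On day 3 the log2 difference was 3.37 (3.10 to 3.65) from day 0 and 3.88 (3.52 to 4.26) from day 1. For miR-483-3p, 14, 10 and 344 reads were counted, at 1.65 CPM (0.900 to 2.76), 1.56 CPM (0.747 to 2.86) and 35.1 CPM (31.5 to 39.0). Day 1 could not be told from day 0 at this depth (log2 -0.08, -1.41 to 1.20), while day 3 was 4.42 (3.65 to 5.30) above day 0 and 4.50 (3.60 to 5.57) above day 1. Relative to day 0, the summed arms of the intronic Igf2 hairpin stood at log2 3.52 on day 3 (3.27 to 3.78), above the 2.22 (2.12 to 2.32) of the exonic H19 hairpin at the neighbouring locus.

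At Mest, the arms did not move together. For miR-335-3p, the libraries held 48, 205 and 3061 reads in time order, at 5.64 CPM (4.16 to 7.48), 31.9 CPM (27.7 to 36.6) and 312.5 CPM (301.5 to 323.8). Each library was above the one before it, by log2 2.50 (2.04 to 2.99) on day 1 and by a further 3.29 (3.09 to 3.50) on day 3. Day 3 was 55.4 times day 0 (log2 5.79, 5.38 to 6.23). The other arm, miR-335-5p, had 289, 216 and 1558 reads, at 34.0 CPM (30.2 to 38.1), 33.6 CPM (29.3 to 38.4) and 159.1 CPM (151.3 to 167.2). On day 1 its log2 difference was -0.01 (-0.28 to 0.25), and on day 3 it was 2.23 (2.05 to 2.41) against day 0 and 2.24 (2.04 to 2.45) against day 1. The arms summed to 39.6, 65.6 and 471.6 CPM. The day 1 sum was above day 0 with the library total (log2 0.73) but below it with TMM (-0.22) or median-of-ratios factors (-0.31).

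In the Gnas region, both members were near the floor on day 0. For miR-296-3p, 6, 11 and 248 reads were counted, at 0.705 CPM (0.259 to 1.54), 1.71 CPM (0.855 to 3.07) and 25.3 CPM (22.3 to 28.7). Its day 1 difference of log2 1.28 had an interval that included 0 (-0.28 to 3.00), and the day 3 library was 5.17 (4.02 to 6.63) above day 0 and 3.89 (3.02 to 4.91) above day 1. For miR-298-5p, 1, 6 and 200 reads were counted, at 0.118 CPM (0.00298 to 0.655), 0.934 CPM (0.343 to 2.03) and 20.4 CPM (17.7 to 23.5). Its day 0 level was under the floor, so the day 3 ratio of 174 has a counting interval from 30.8 to 6895 and becomes 57.9 with the floor of 3 reads, and day 3 was 21.9 times day 1 (9.86 to 60.3).

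Of the arms of these hairpins that are not members, miR-296-5p stood less far above day 0 on day 3 than any member. With the floor of 3 reads, miR-298-3p lay within the range of the members in that comparison (log2 4.02, beside 2.13 to 5.86). miR-296-5p, the arm with more reads than its partner in each library, had 284, 404 and 658 reads, at 33.4 CPM (29.6 to 37.5), 62.9 CPM (56.9 to 69.4) and 67.2 CPM (62.1 to 72.5). Its log2 difference from day 0 was 0.91 (0.69 to 1.14) on day 1, which turned to -0.03 with TMM or -0.13 with median-of-ratios factors, and 1.01 (0.81 to 1.21) on day 3, which turned to -0.11 with median-of-ratios factors. Day 3 against day 1 gave 0.09 (-0.09 to 0.28). For miR-298-3p, no read was counted on day 0 (an upper limit of 0.434 CPM), 1 on day 1 and 56 on day 3 (5.72 CPM, 4.32 to 7.42). The day 3 level was at least 12.8-fold higher than that of day 0, from the lower end of the counting interval, and 16.2 times the floor of 3 reads. With all 4 arms, the region's level was 34.2, 65.7 and 118.6 CPM, against 0.823, 2.65 and 45.7 CPM for the members alone, so the large ratios of the Gnas-region members belong to the minor arm of Mir296 and to Mir298 and not to the region's reads as a whole.

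Within a library the order of the levels was read from neighbours whose intervals did not overlap. On day 0 the order was miR-675-3p, miR-335-5p, miR-483-5p, miR-675-5p, miR-335-3p, miR-483-3p, miR-296-3p and miR-298-5p; miR-675-5p could not be told from miR-335-3p, nor miR-483-3p from miR-296-3p, nor miR-296-3p from miR-298-5p. On day 1 miR-675-3p, miR-335-5p and miR-335-3p overlapped at the top, miR-483-5p came next, and miR-675-5p, miR-296-3p, miR-483-3p and miR-298-5p overlapped from neighbour to neighbour at the bottom. On day 3 miR-675-3p led, followed by miR-335-3p. Below them miR-335-5p overlapped miR-483-5p, then came miR-675-5p and miR-483-3p, and miR-296-3p overlapped miR-298-5p.

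To set the members against the whole list, miRNAs with at least 10 reads in 1 of the 2 libraries compared were counted as higher or lower at a 2-fold difference, with the floor of 3 reads in place of lower counts. For day 1 against day 0, 7 of the 8 members had enough reads. Of these, miR-335-3p and miR-296-3p were past 2-fold higher, where 55.3% of all 532 counted miRNAs were, and miR-675-3p and miR-675-5p past 2-fold lower, where 12.0% were. The members' median log2 difference was -0.08, against 1.28 for all counted miRNAs.

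For day 3 against day 0, 8 of 8 members were past 2-fold higher and 0 lower, beside 58.5% higher and 10.0% lower among 569 counted miRNAs. The medians were 3.89 for the members and 1.47 for all. For day 3 against day 1, 8 of 8 members were again higher and 0 lower, beside 25.0% higher and 17.7% lower among 583, and the medians were 3.88 and 0.02. The share of counted miRNAs with a larger log2 difference than the member ran from 1.05% (miR-298-5p) to 32.3% (miR-675-3p) for day 3 against day 0, and from 1.03% (miR-675-5p) to 9.43% (miR-335-5p) for day 3 against day 1. Because these contrasts were in view when the members were chosen, nothing is read from the counts.

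**Figure D2:**
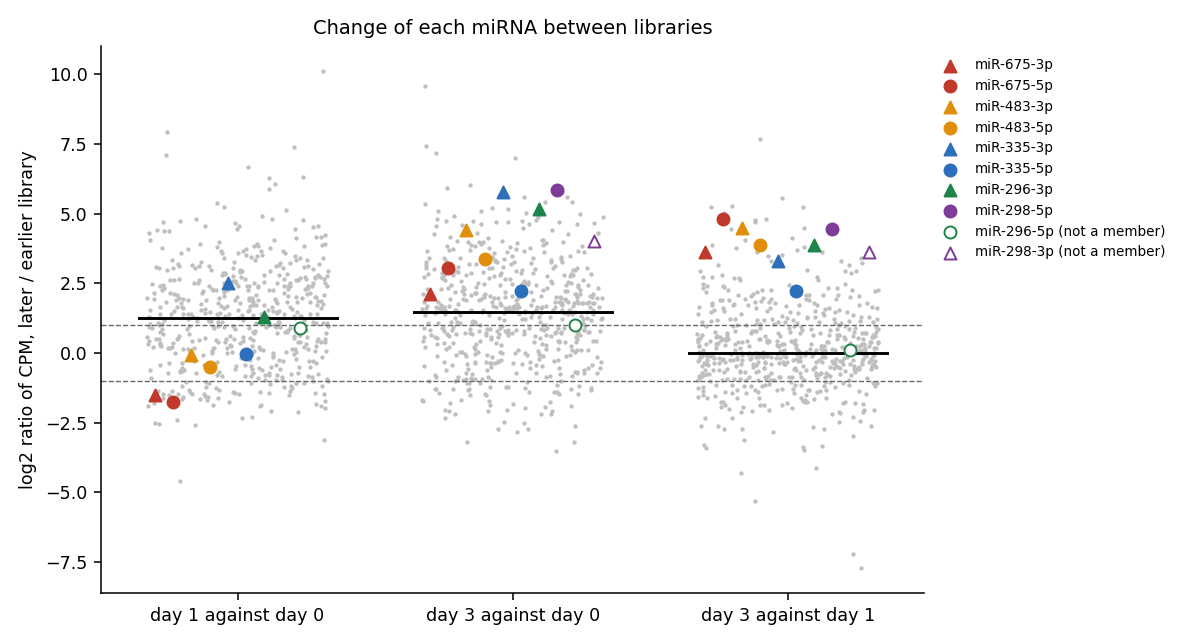
Log2 ratio of CPM, later over earlier library, for every miRNA with at least 10 reads in 1 of the 2 libraries (grey points) and for the members (filled symbols, triangles for 3p and circles for 5p) and the 2 other arms (open symbols), with counts under 3 reads set to 3. Black bars are medians of all counted miRNAs (1.28, 1.47 and 0.02) and dashed lines mark 2-fold; the members lie on both sides of 0 in the first column and above 2-fold in the others.

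The scaling decided part of the day 1 picture. TMM factors moved every log2 difference by -0.94 for day 1 against day 0, by -0.93 for day 3 against day 0 and by 0.02 for day 3 against day 1, and median-of-ratios factors by -1.04, -1.12 and -0.08. With TMM the share of counted miRNAs past 2-fold higher fell from 55.3% to 35.2% on day 1 and from 58.5% to 37.4% on day 3, or to 33.1% and 32.7% with the median-of-ratios factors. The share past 2-fold lower rose to 24.2% and 22.1% with TMM, or to 25.9% and 24.8% with the other factors. miR-675-3p, miR-675-5p and miR-483-5p were below day 0 on day 1 and miR-335-3p above it under each alternative tried. Over these alternatives the day 1 difference ran from -2.54 to -1.47 for miR-675-3p and from 1.46 to 2.39 for miR-335-3p. That of miR-296-3p fell under 2-fold, to as little as 0.24, and the members past 2-fold lower on day 1 went from 2 to 4 with TMM and to 5 with the other factors. On day 3 every member stayed past 2-fold higher than day 0 under each alternative, the smallest value being 1.01 for miR-675-3p with median-of-ratios factors.

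**Figure D3:**
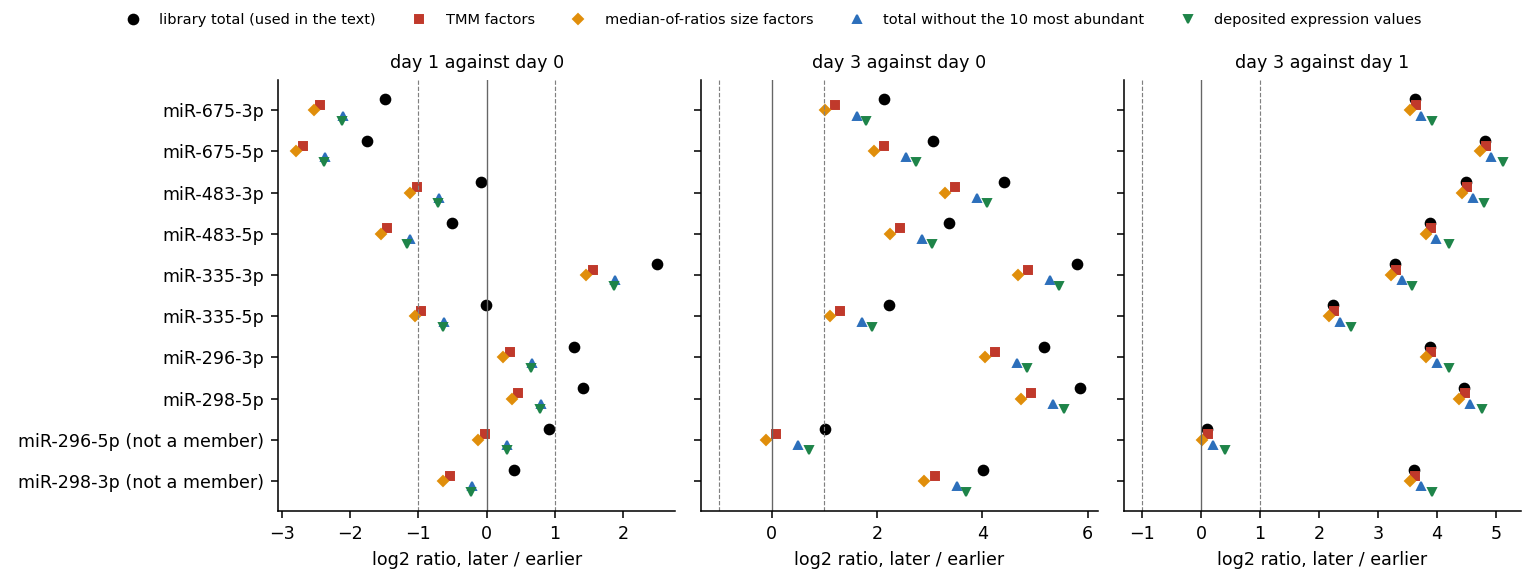
Log2 ratio, later over earlier library, of each member and the 2 other arms under 5 ways of scaling (black circles, library total; red squares, TMM; orange diamonds, median-of-ratios; blue up triangles, total without the 10 most abundant miRNAs; green down triangles, deposited expression values), with a panel per comparison and counts under 3 reads set to 3. Dashed lines mark 2-fold; the first panel has members on both sides of 0, and in the other panels all 8 members lie past 2-fold higher under each scaling.

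The share of each arm among the reads of its own hairpin does not depend on the scaling of the library. The hairpins of miR-335 and miR-296 are shown because their arm shares differed most, with the 5p and 3p arms in capitals.
Mir335: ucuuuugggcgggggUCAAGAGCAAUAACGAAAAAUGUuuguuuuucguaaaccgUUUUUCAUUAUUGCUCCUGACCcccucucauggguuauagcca
Mir296: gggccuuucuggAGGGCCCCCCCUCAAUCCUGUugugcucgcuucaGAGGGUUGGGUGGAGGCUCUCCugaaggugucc

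The 98-base Mir335 hairpin holds its arms at bases 16 to 38 and 56 to 77, and RNAfold gave it a folding energy of -44.3 kcal/mol. The 79-base Mir296 hairpin holds them at bases 13 to 33 and 47 to 68, with -43.2 kcal/mol. In Mir335, 14.2% of the hairpin's reads came from the 3p arm on day 0 (10.7 to 18.4), 48.7% a day after injury (43.8 to 53.6) and 66.3% on day 3 (64.9 to 67.6), so the leading arm was 5p on day 0, could not be told on day 1 and was 3p on day 3. In Mir296 the share of the 3p arm was 2.07% (0.763 to 4.45), 2.65% (1.33 to 4.69) and 27.4% (24.5 to 30.4), so 5p led throughout.

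The other hairpins kept their leading arm with smaller differences in share. In Mir675 the 5p arm held 7.10% (5.54 to 8.93), 6.00% (3.40 to 9.70) and 12.6% (11.7 to 13.6). In Mir483 the 3p arm held 10.2% (5.70 to 16.6), 13.3% (6.58 to 23.2) and 19.04% (17.3 to 20.9). In Mir298 only day 3 had enough reads, with 56 of 256 in the 3p arm (21.9%, 17.0 to 27.4). In 4 of the 4 hairpins that had 50 or more reads on both days, the arm with fewer reads on day 0 held a larger share on day 3, with intervals that did not overlap, beside 29.7% of all 175 hairpins with that many reads. The arm was picked as the smaller on day 0, which favours a larger share later.

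Among hairpins that reached 50 reads in each library of a pair, the leading arm differed in 3.51% of 171 for day 1 against day 0, in 3.43% of 175 for day 3 against day 0 and in 2.54% of 197 for day 3 against day 1. For day 3 against day 0, Mir335 was 1 of the 6 hairpins in which it did. The 3p to 5p ratio differed between day 3 and day 0 by 3.55 on the log2 scale in Mir335 and by 4.05 in Mir296, the 15th and 9th largest of the 175, beside a median of 1.03. Mir675 at 0.91 and Mir483 at 1.00 were close under that median.

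**Figure D4:**
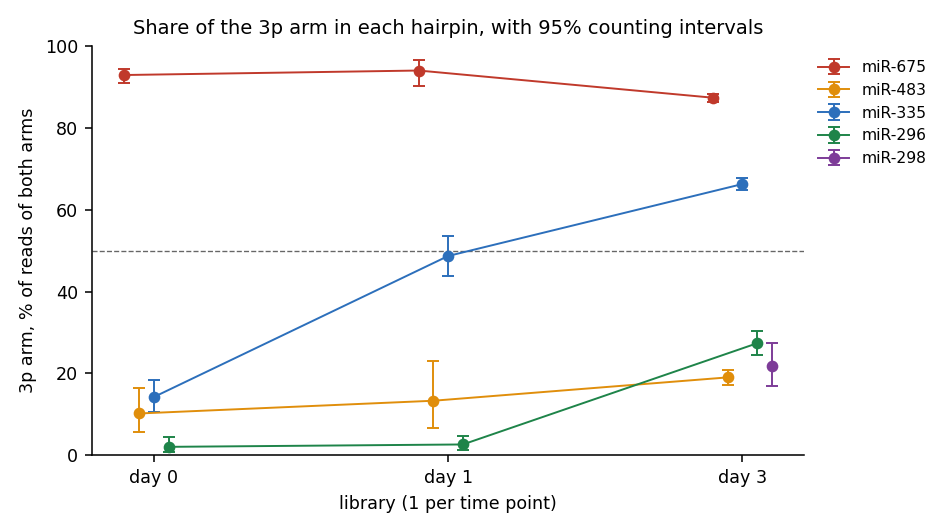
Share of the 3p arm, in percent of the reads of both arms of a hairpin, in the day 0, day 1 and day 3 libraries, with exact 95% Clopper-Pearson intervals and a point only where both arms together had at least 50 reads. The line of miR-335 crosses the dashed line at 50% between day 0 and day 3, that of miR-296 goes from 2.07% to 27.4%, and those of miR-675 and miR-483 stay on the same side.

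The members were set beside miRNAs of other imprinted clusters. The Dlk1-Dio3 cluster, a maternally expressed miRNA cluster on chromosome 12 known from embryonic muscle and muscle stem cells, had 93 listed miRNAs. For day 1 against day 0, 4 of 61 counted were higher and 18 lower (median log2 -0.70); for day 3 against day 0, 42 of 78 were higher and 8 lower (median 1.23); for day 3 against day 1, 56 of 76 were higher and 0 lower (median 1.65). For day 3 against day 0 these shares were close to those of all counted miRNAs (58.5% higher, 10.0% lower), whereas the shares lower on day 1 and higher between day 1 and day 3 were above theirs (12.0% and 25.0%). The shares higher on day 1 and lower between day 1 and day 3 were below theirs (55.3% and 17.7%). In the order of the comparisons, the medians of all counted miRNAs were 1.28, 1.47 and 0.02. Its most abundant members were miR-127-3p, with 7452, 7693 and 24790 reads, and miR-411-5p, with 10747, 4977 and 19559 reads. The day 3 to day 1 difference was 1.08 for miR-127-3p and 1.37 for miR-411-5p, under the 3.63 of miR-675-3p and the 3.29 of miR-335-3p. Over the whole Dlk1-Dio3 list it ran from -0.86 to 4.05, which overlapped the members' 2.24 to 4.81.

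The families miR-466, miR-467, miR-669 and miR-297, which fill an intron of the imprinted gene Sfmbt2, had 60 listed miRNAs, many of near-identical sequence. Against day 0 they were higher already on day 1 (36 of 37 names, median 3.58, beside 55.3% and 1.28 for all counted miRNAs). They were also higher on day 3 (41 of 42 names, median 2.94, beside 58.5% and 1.47). For day 3 against day 1 there were 2 higher and 3 lower of 41 (median -0.15, beside 25.0% higher, 17.7% lower and 0.02). Some names carried the same value, such as miR-466b-3p, miR-466c-3p and miR-466p-3p (log2 0.09, day 3 against day 1). The names are therefore not all separate measurements, and these counts and medians can hold the same reads more than once. miR-467a-5p had 344, 3738 and 3579 reads and miR-467e-5p 168, 1196 and 981. In the day 3 to day 1 comparison, the H19, Igf2, Mest and Gnas-region miRNAs thus stood above both clusters by their median, 3.88, with the Dlk1-Dio3 list between and the Sfmbt2 list near 0. Whether these lists differ was not tested.

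**Figure D5:**
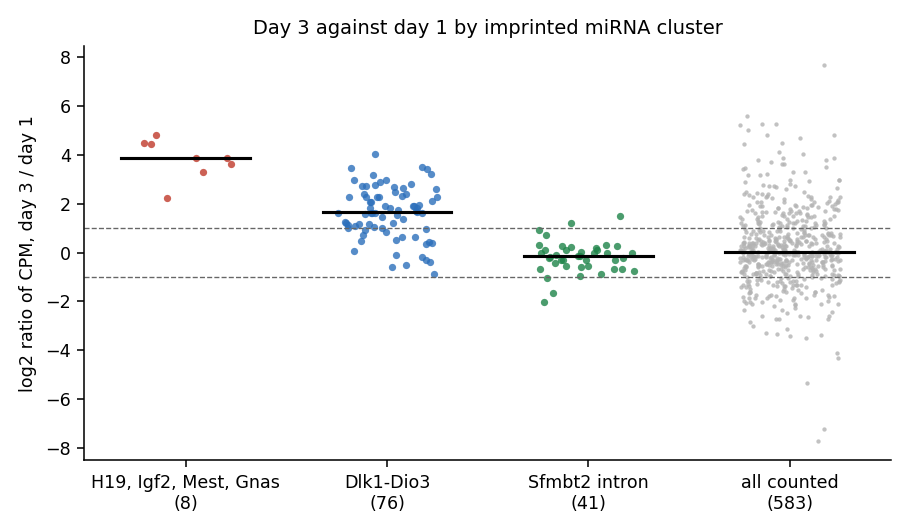
Log2 ratio of CPM, day 3 over day 1, for each miRNA with at least 10 reads in 1 of the libraries, in the 8 members (red), the Dlk1-Dio3 list (blue), the Sfmbt2 intron list (green) and all counted miRNAs (grey), with the number of points under each name. Black bars are medians (3.88, 1.65, -0.15 and 0.02) and dashed lines mark 2-fold. All members lie above 2-fold, and the other arms miR-296-5p (0.09) and miR-298-3p (3.61) are not among the red points.

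Of the cell type marker lists, only that of regenerating muscle and myoblasts had all its markers past 2-fold higher on day 3 than on day 1, as the members were. In whole muscle, fewer cells of a type and less RNA per cell cannot be told apart. By CPM the regenerating muscle and myoblast markers were lowest on day 1 and highest on day 3, as the H19 miRNAs were. miR-206-3p, a miRNA of myoblasts and new fibers, had 12384, 4781 and 180001 CPM, and miR-133b-3p, transcribed with it, 1240, 247 and 1644 CPM. Both were past 2-fold lower on day 1 against day 0, where 12.0% of all counted miRNAs were. Both were past 2-fold higher on day 3 against day 1, where 25.0% were. Against day 0, the day 3 log2 difference of miR-133b-3p was 0.41, which turned to -0.52 with TMM, -0.71 with median-of-ratios factors and -0.10 without the 10 most abundant miRNAs, while that of miR-206-3p stayed above 2-fold. The 5 mature myofiber markers, among them miR-1a-3p and miR-133a-3p, summed to 260787, 86670 and 95887 CPM, in the order of the days. Most of it was miR-1a-3p (233587, 73841 and 88096 CPM). From day 1 to day 3, miR-133a-3p (log2 -0.74), miR-486a-5p (-0.19) and miR-499-5p (-1.19) were lower. Against day 0, 4 of the 5 were past 2-fold lower on day 3, where 10.0% of all counted miRNAs were. The remaining myofiber marker, miR-208b-3p (4, 1 and 10 reads), was higher by 1.12, or by 0.19 with TMM. The 5 leukocyte markers, among them miR-223-3p and miR-142a-3p, summed to 5009, 18919 and 6677 CPM. On day 0 most of that sum was miR-150-5p, a lymphocyte miRNA, at 4733, 8307 and 3197 CPM. miR-223-3p stood at 97.8, 7815 and 1896 CPM and miR-142a-3p at 25.2, 1684 and 816.2 CPM, so that on day 3 both were well above day 0. From day 1 to day 3 both were lower (log2 -2.04 and -1.04), whereas every member was higher. Of the 5 leukocyte markers, 3 were past 2-fold higher than day 0 on day 1 and 3 on day 3, near the shares of all counted miRNAs (55.3% and 58.5%). The labelled tissue thus carried its defining markers, and the leukocyte sum was highest on day 1, whereas every member was highest on day 3.

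The other marker lists had other shapes. The 2 stromal markers summed to 943, 2397 and 3281 CPM, with miR-199a-3p highest on day 3 and miR-214-3p about level between day 1 and day 3 (566.3 and 555.6 CPM). The endothelial pair summed to 59427, 132923 and 58732 CPM and the erythroid pair to 7142, 25326 and 12560 CPM. For day 3 against day 0, the log2 differences of miR-451a (0.81) and miR-144-3p (0.91) turned to -0.11 and -0.02 with TMM. Those of miR-126a-3p (-0.01) and miR-126a-5p (-0.20) went to -0.94 and -1.13. The epithelial list summed to 5.41, 171 and 78.3 CPM, and 2 of its 3 markers were past 2-fold higher on day 3 than on day 0, where 58.5% of all counted miRNAs were. Of these, miR-200c-3p stood at 4.47, 158.1 and 72.1 CPM. The neural list summed to 30.3, 84.1 and 77.2 CPM, most of it miR-138-5p, which was highest on day 3 (23.9, 63.9 and 69.5 CPM), while miR-124-3p was lower on day 3 (1.43 CPM) than on day 0 (1.88 CPM). The liver marker miR-122-5p stood at 6.46, 31.0 and 15.9 CPM. The day 3 against day 0 log2 differences of miR-138-5p (1.54) and miR-122-5p (1.30) fell under 2-fold with TMM, to 0.62 and 0.37. That of miR-199a-3p (1.64) fell to 0.72, while that of miR-214-3p (2.99) stayed above 2-fold, at 2.07. No marker was at 0 in any library, and the part of any of these cell types in the members' changes was not tested.

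To find the patterns most like those of the members, the pair of log2 differences from day 0 (day 1, day 3) of the member with the most reads at each locus was compared with that of all miRNAs outside the locus with at least 100 reads in a library, by Euclidean distance over 3 libraries. Nearest to miR-675-3p among 342 were miR-7689-3p (distance 0.13; 352, 87 and 1857 reads), miR-412-5p (0.62) and miR-433-3p (0.67). Nearest to miR-483-5p were miR-370-3p (0.12; 8, 4 and 101 reads), miR-376b-3p (0.30) and miR-206-3p (0.99; 105359, 30697 and 1763128 reads). Over the 4 loci, 4 of the 12 nearest belonged to the Dlk1-Dio3 list, namely miR-412-5p, miR-433-3p, miR-370-3p and miR-376b-3p, beside 43 of the 342 searched (12.6%). Some of them reached 100 reads on day 3 only, such as miR-370-3p and miR-412-5p (32, 13 and 178 reads). Because the members' counts were in view when they were chosen, nothing is read from this share.

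The Mest and Gnas-region members had other neighbours. Nearest to miR-335-3p were miR-96-5p (0.23; 7, 28 and 387 reads), miR-351-5p (0.25; 124, 466 and 7070 reads) and miR-1983 (0.77). Nearest to miR-296-3p among 341 were miR-182-5p (0.25; 54, 117 and 2320 reads), miR-449a-5p (0.70) and miR-128-2-5p (0.88; 1, 1 and 119 reads). The last was under the floor on day 0 and day 1, so its day 1 difference carries only the depths of the libraries. Mir182 and Mir96 lie near each other on chromosome 6.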

How the data were processed

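Small RNA of 18 to 30 nucleotides from TA muscle was sequenced on the BGISEQ platform, in 3 libraries of 4 pooled samples each. The submitters' processing notes name HISAT and Bowtie2 and the build GRCm38.p6; the counting tool is not given in the sources used here. The deposited read count of each of the 1138 miRNAs carries no normalization. The deposited expression value is a whole number no larger than the read count and was treated as a score; how the authors made it is not stated, though per the labels the 3′ adapters carried unique barcodes. For the members it was 96.5% to 100% of the reads. Over all listed miRNAs it was much lower, with sums of 2583553, 3017586 and 3688064 beside 8507580, 6421056 and 9795076 reads on days 0, 1 and 3.

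Reads were scaled to the library total (CPM). The members and lists were chosen with earlier results of these data known, so no p-value is given, and with 1 library per time point no replicate model can be fitted. Intervals (95%) cover counting error only. The deposited read count was used as it stands, and reads can be copies of the same molecule, so the intervals may be too narrow even for that. A miRNA counted as changed at 2-fold with at least 10 reads in 1 library and a floor of 3 reads. The miRNAs named were the members, the other arm of their hairpins, the 3 nearest patterns per locus, the marker lists and the 2 most abundant of each comparison list. The arm comparisons over all hairpins, with their minimum of 50 reads, were chosen after the data were seen.

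The alternatives were TMM factors (edgeR 4.0.16), median-of-ratios factors (DESeq2 1.42.0), the total without the 10 most abundant miRNAs, the deposited expression values, a pseudocount of 1 CPM, minimums of 1 and 100 reads, a fold of 4 and thinning to 6421056 reads. edgeR and DESeq2 gave scaling factors only. The scripts were tested on simulated data. Sequences came from the RefSeq table and positions from GENCODE M21. Python 3.11.15, pandas 2.3.3, scipy 1.17.1, R 4.3.3 and RNAfold 2.7.2 were used.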

Additional observations from a re-analysis of the deposited data

Results flagged for a closer look

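The miRNAs miR-675-3p, miR-675-5p and miR-483-5p lay below day 0 on day 1 and above it on day 3. The log2 difference from day 0 was -1.49 on day 1 and 2.13 on day 3 for miR-675-3p, -1.75 and 3.05 for miR-675-5p, and -0.51 and 3.37 for miR-483-5p. Each time point is a single library and both differences share the day 0 library, so the difference between the time points was not tested.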

How the results depend on the processing

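For day 3 against day 0 and against day 1, 8 of 8 members were past 2-fold higher and 0 lower under each of the alternatives. The share of all counted miRNAs past the fold higher ran from 32.7% (median-of-ratios factors) to 59.8% (thinning) for day 3 against day 0. For day 3 against day 1 it ran from 11.5% (fold of 4) to 29.8% (deposited values). The shares past the fold lower ran from 3.16% to 24.8% and from 5.83% to 19.4%. For day 1 against day 0, the count of members past 2-fold higher, 2 with the library total, was 1 with TMM factors, median-of-ratios factors, the total without the 10 most abundant miRNAs, the deposited expression values, a pseudocount of 1 CPM, a minimum of 100 reads, a fold of 4 or thinning, and 3 with a minimum of 1 read. The matching shares of all counted miRNAs ran from 33.1% (median-of-ratios factors) to 56.5% (thinning). The count past 2-fold lower, 2 with the library total, was 4 with TMM and 5 with median-of-ratios factors, 3 without the 10 most abundant miRNAs or with the deposited values, 1 with a minimum of 100 reads and 0 with a fold of 4. Beside these, 24.2%, 25.9%, 20.7%, 20.1%, 12.5% and 1.88% of all counted miRNAs were past the fold lower, in the same order. The log2 difference of miR-296-5p between day 3 and day 0 went from 1.01 to -0.11 with median-of-ratios factors, which move every miRNA in that comparison by -1.12. Of the other values, arm shares included, 202 stayed within their counting interval and 97 left it. A change of scaling moves every miRNA by the same amount, so this tally also reflects how wide each interval is. For example, miR-296-3p for day 1 against day 0 went from 1.28 to 0.24 with median-of-ratios factors and stayed within its interval. The depth limits the Gnas-region members most, since miR-298-5p had 1 read on day 0. No replicate could be left out, because each time point has 1 library.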

Other observations

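The 6 hairpins whose leading arm differed between day 3 and day 0 were miR-335, miR-338, miR-543, miR-574, miR-30e and miR-299a. Of these, miR-543 and miR-299a are in the Dlk1-Dio3 list. The list was drawn after the data were seen, and with 1 library per time point it has no replicate check.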
